A study of Homo sapiens with 6 samples.

Results

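HERV9 is a class I human endogenous retrovirus group, and the LTR12 entries are its long terminal repeats (LTRs). Reads over these repeats were examined in chromatin-bound RNA of the established human embryonic stem cell line H9, with 3 libraries labelled naive and 3 labelled primed. Values per library are given in the order of libraries 1, 2 and 3 throughout. The entries were chosen by name. Of 10 names sought, 9 were present among the 15641 entries of the count table, namely the internal entries HERV9-int, HERV9N-int and HERV9NC-int and the LTR entries LTR12, LTR12B, LTR12C, LTR12D, LTR12E and LTR12F. The tenth name, LTR12_, did not occur in that form. An entry called LTR12_v did, and it is described beside the 9 without being counted among them.

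Both groups came from the same line with no genetic change named in the labels, and the treatment label alone separates them. The growth protocol of all 6 libraries describes RSeT medium, a commercial medium for the naive state, so how the primed cells were grown is not known from them. Cells were fractionated, and directional libraries were made from the chromatin-bound RNA. The table counts reads per repeat name over all genomic copies, so an entry has no single coordinate and its count follows copy number and length as well as transcription. The labels do not state that the 3 libraries of a group came from separate cultures, so p-values measure the spread between libraries, which may be technical.

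A complete provirus has an internal region with the retroviral genes between a pair of LTRs, but most copies in the human genome are solitary LTRs left by recombination between the pair. An LTR carries the promoter and the polyadenylation signal of the virus. HERV9 LTRs, LTR12C among them, are known as alternative promoters of host genes, in the testis for example, and an LTR of this group lies upstream of the beta-globin locus control region. Reads over an LTR entry can therefore come from the provirus, from a solitary LTR, or from a longer host transcript that runs through it, and the counts do not separate these sources.

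The naive libraries held 9748202, 17791046 and 16700953 counts, and the primed ones 7192242, 118793 and 8106871. By far the shallowest, primed library 2 held 375 counts over the 9 entries, against 18442 to 41006 in each of the other 5 libraries. Alpha satellite, the centromeric tandem repeat, took 25.3% to 42.9% of the counts in naive libraries and 0.221% to 0.625% in primed libraries. It lowers the share left to every other repeat in naive libraries, and the choice of scaling matters for small changes. Together with ribosomal RNA it took 31.3%, 48.5% and 34.6% in the naive and 17.9%, 4.65% and 8.31% in the primed libraries. In the primed libraries most of this was ribosomal RNA, with the highest share in primed library 1. Main values are CPM (counts scaled to the library total) normalised by TMM, a method that sets library factors from the bulk of entries. These factors were 0.628 to 0.904 in naive and 1.10 to 1.51 in primed libraries. Of the repeats known from pluripotent cells, HERVK-int, LTR5_Hs, HERVH-int and LTR7 were called higher in the libraries labelled naive. HERVK-int and LTR5_Hs are known for naive cells. LTR7Y, SVA_D, SVA_E and SVA_F are also known for naive cells and were not called, nor was LTR7C, known for primed cells. HERVK-int and LTR5_Hs kept their calls with library size alone, and HERVH-int (edgeR adjusted p = 0.225) and LTR7 (0.617) lost theirs. Under that scaling LTR7Y, SVA_D, SVA_E and SVA_F had negative log2 changes (-0.08, -0.60, -0.30 and -0.53), again not called. LTR7C was then called lower (log2 -0.94, edgeR adjusted p = 0.00898), as were 16.8% of named repeats tested (all but simple repeats).

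The comparison asks whether HERV9 RNA on chromatin differed between the naive and primed state. With TMM scaling, 1 of the 9 entries, HERV9NC-int, was called higher in naive libraries, 0 were called lower and 8 did not pass (edgeR, quasi-likelihood, adjusted p under 0.05 by Benjamini-Hochberg over 3219 entries). At an unadjusted p under 0.05 there were 3 of 9, where 31.5% of named repeats reached that level. DESeq2 also called 1 higher and 0 lower. Over all entries tested, 4.94% were called higher and 7.77% lower. Over the 1265 named repeats tested, which leaves out simple repeats, 10.4% were called higher and 1.19% lower, so 1 of 9 is near the background. The median log2 change of the 9 entries was 0.29, against 0.21 for all named repeats tested and -0.0046 for all entries tested. All 9 entries passed the filter on low counts.

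The direction of these small changes depended on the scaling. With library size as the only scaling, the median log2 change was -0.36 for the 9 entries, -0.42 for named repeats and -0.61 for all entries, and 0 of the 9 were above 0. LTR12B was then called lower and HERV9NC-int was not called. Under that scaling 1.03% of named repeats were called higher and 16.8% lower. Measured against all named repeats, the median of the 9 entries thus lay slightly higher under both scalings. It was lower than that of 246 other entries with names starting with LTR (0.32 with TMM, -0.30 with library size alone). For 99 other internal entries the medians were 0.29 with TMM and -0.33 with library size alone. With all libraries thinned to the shallowest, the median was -0.010 for the 5 entries tested and 0.023 for named repeats.

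Among the internal regions, HERV9NC-int had 5551, 6563 and 7628 counts in the naive and 3083, 69 and 4292 in the primed libraries. This corresponds to 630.2, 587 and 534 TMM CPM for the naive and 389, 385 and 427 for the primed libraries. The groups did not overlap, and the lowest naive library stood well above the highest primed one. The naive mean was 584 ± 48.0 CPM and the primed mean 400.4 ± 22.8 (SD, n = 3), a 1.45-fold difference. The log2 change was 0.54 ± 0.13 (SE; edgeR adjusted p = 0.0239), with a 95% interval of 0.26 to 0.82. The call was lost without naive library 2 (log2 0.57, edgeR adjusted p = 0.0648) or primed library 1 (0.49, 0.158), with upper-quartile factors (0.42, 0.0577), in a fit of named repeats only (0.31, 0.101) and with all libraries thinned to the shallowest (0.42, 0.456). With library size alone the sign turned (log2 -0.13, edgeR adjusted p = 0.723) and the groups overlapped.

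HERV9-int, the main internal entry of the group, stood at 498, 684 and 593 TMM CPM in the naive and 406, 547 and 513 in the primed libraries. Naive library 1 lay below primed libraries 2 and 3, so the groups overlapped. The log2 change was 0.29 ± 0.16 (SE; edgeR adjusted p = 0.234), with a 95% interval from -0.06 to 0.64. It was 0.14 without primed library 1, and -0.43 with library size alone (edgeR adjusted p = 0.193).

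HERV9N-int, a less abundant internal variant, was at 46.2, 59.1 and 58.7 TMM CPM in the naive and 34.3, 44.7 and 45.6 in the primed libraries. The groups were separated by a narrow margin, between naive library 1 and primed library 3. The value of primed library 2 rests on 8 counts, whose exact Poisson interval spans 19.3 to 88.0 CPM and covers counting error only. The log2 change of 0.44 ± 0.18 (SE) did not pass (edgeR adjusted p = 0.129), and it was 0.26 without primed library 1.

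**Figure D1:**
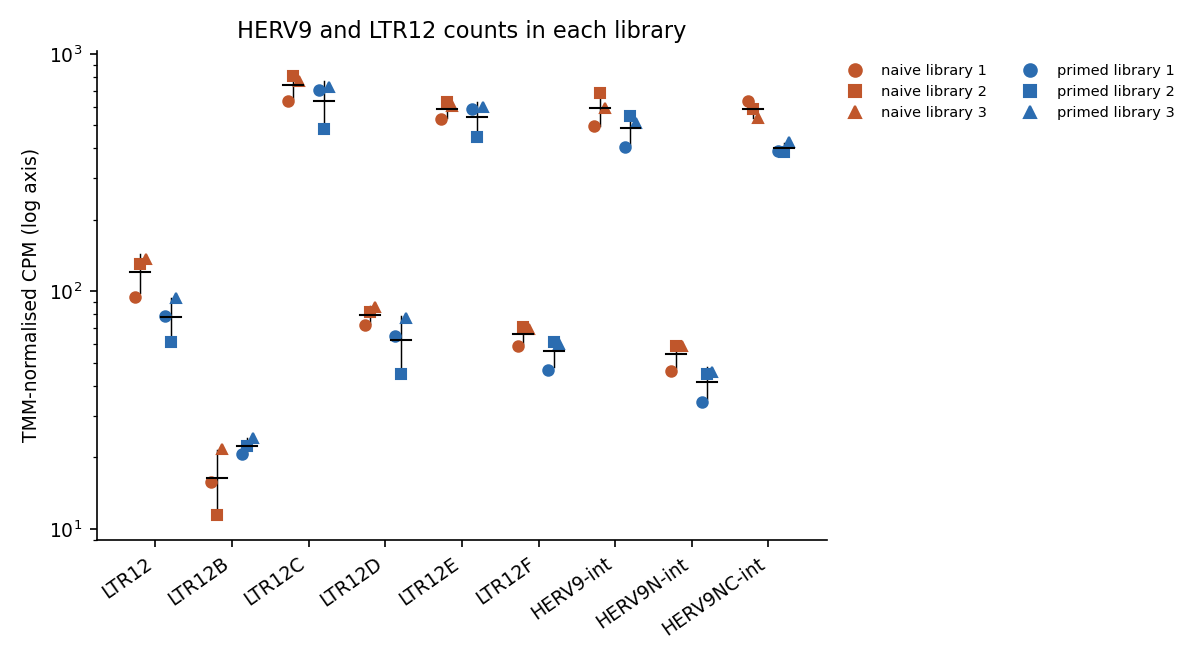
TMM-normalised CPM (log axis) of the 9 HERV9 and LTR12 entries in each of the 3 naive (orange) and 3 primed (blue) libraries, with the mean as a horizontal bar and the SD as a vertical line. With this scaling HERV9NC-int separates the groups, with 534 to 630.2 CPM in naive and 385 to 427 in primed libraries, whereas LTR12C and LTR12E overlap. Of named repeats, 36% separate in the same direction with TMM. HERV9NC-int overlaps with library size alone.

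LTR12C, the LTR subfamily of this group best known as a promoter of host genes, had 5553, 9037 and 11012 naive counts and 5553, 86 and 7267 primed counts. Scaled by TMM the naive values were 630.4, 808 and 771 CPM and the primed ones 701, 480.2 and 722. The groups overlapped, because naive library 1 was below primed libraries 1 and 3. The log2 change was 0.19 ± 0.17 (SE; edgeR adjusted p = 0.463), and the 95% interval of -0.17 to 0.56 does not include a 2-fold difference in either direction. Primed library 2 was the lowest of all 6, and its exact Poisson interval of 384 to 593 CPM lies below the values of the other 5 libraries. Without it the log2 change was 0.06, and without naive library 1 it was 0.32.

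LTR12E, the other abundant LTR entry, had the smallest change of the 9. It stood at 533, 624 and 601 TMM CPM in the naive and 587, 447 and 599 in the primed libraries, and the groups overlapped. The log2 change was 0.09 ± 0.14 (SE; edgeR adjusted p = 0.700), with a 95% interval from -0.22 to 0.40. With library size alone LTR12E was lower in each naive library than in any primed library, with a log2 change of -0.57 that did not pass (edgeR adjusted p = 0.0799).

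The entry named LTR12 without a letter had the largest positive change of the LTRs. Its values were 94.9, 131 and 137 TMM CPM in the naive and 78.8, 61.4 and 93.4 in the primed libraries, so naive library 1 and primed library 3 nearly met. Primed library 2 had 11 counts of LTR12, with an exact Poisson interval of 30.7 to 110 CPM that reaches above naive library 1. The log2 change was 0.55 ± 0.18 (SE) and missed the threshold (edgeR adjusted p = 0.0634). Without naive library 1 it passed (log2 0.72, edgeR adjusted p = 0.0116), and with library size alone it was -0.07 (0.843).

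LTR12B was the only entry of the 9 with a negative change under TMM scaling, and it was also the rarest. It had 139, 128 and 310 naive counts and 164, 4 and 243 primed counts. In TMM CPM the naive values were 15.8, 11.4 and 21.7 and the primed ones 20.7, 22.3 and 24.2, with naive library 3 inside the primed range. The log2 change was -0.46 ± 0.27 (SE; edgeR adjusted p = 0.263), and it ranged from -0.69 without naive library 3 to -0.22 without naive library 2. With library size alone the groups did not overlap, with means of 13.3 ± 5.74 CPM (naive) and 28.8 ± 5.53 CPM (primed; SD, n = 3), and LTR12B was called lower (log2 -1.02, edgeR adjusted p = 0.0139).

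LTR12D and LTR12F, both of low abundance, lay between these. LTR12D averaged 79.8 ± 7.08 CPM over the naive and 62.2 ± 16.3 over the primed libraries (SD, n = 3; log2 0.24, edgeR adjusted p = 0.348). LTR12F averaged 66.4 ± 6.61 and 56.0 ± 8.09 CPM (SD, n = 3; log2 0.29, edgeR adjusted p = 0.246). Both had overlapping groups. With a library left out the log2 change ranged from 0.17 to 0.39 for LTR12D and from 0.13 to 0.41 for LTR12F. The uncounted LTR12_v averaged 77.0 ± 15.1 and 65.8 ± 8.82 CPM (SD, n = 3; log2 0.16, edgeR adjusted p = 0.560), also with overlap.

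Over the 9 entries, all naive libraries lay above all primed libraries for 3 (HERV9NC-int, HERV9N-int and LTR12) with TMM scaling, and the reverse held for 0. Among named repeats the same separation was found for 36% in the higher and 3.24% in the lower direction. With library size alone, all naive libraries lay below all primed ones for 3 entries (LTR12B, LTR12C and LTR12E), where 35.8% of named repeats did so. Both counts are near the background.

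**Figure D2:**
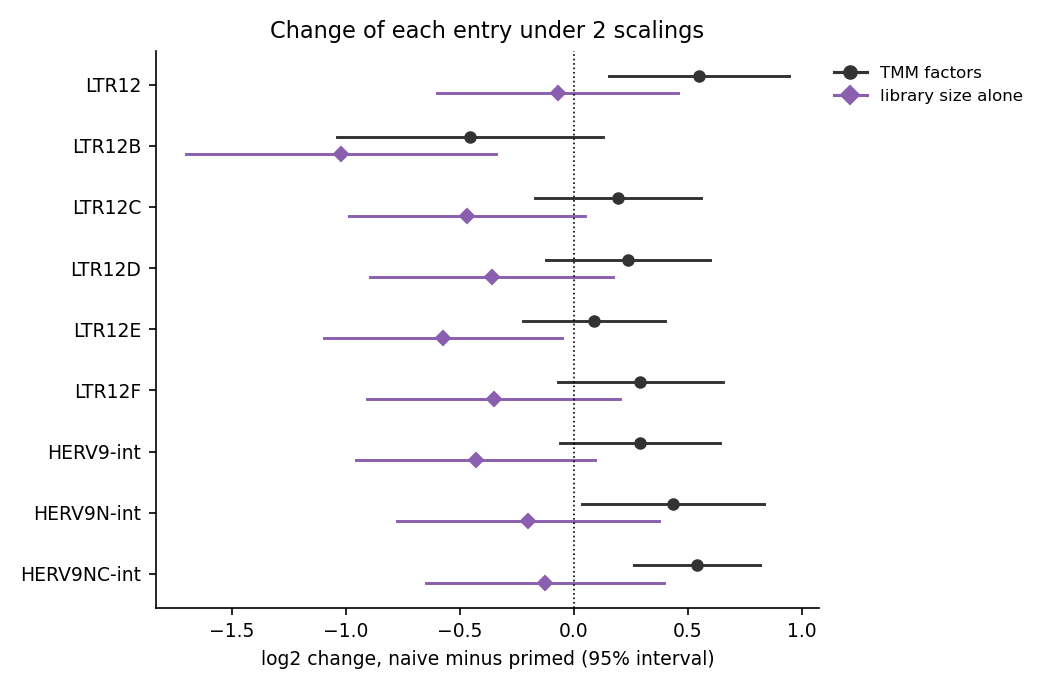
The log2 change (naive minus primed) of each of the 9 entries with its 95% interval, under TMM factors (black circles) and with library size alone (purple diamonds). The points move left together with library size alone, from a median of 0.29 to -0.36, and LTR12B is lowest under both.

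Near-identical subfamilies can exchange reads, since the sources used here do not say how reads that map to several places were counted. The sums are less open to such exchange. Summed over the 6 LTR12 entries, the naive libraries had 1405, 1728 and 1686 TMM CPM and the primed ones 1499, 1117 and 1576. These ranges overlapped. Summed over the 3 internal entries, the naive libraries had 1174, 1330.4 and 1186 CPM and the primed ones 829.7, 977 and 985, without overlap. The log2 ratio of group means was 0.20 for the LTRs and 0.40 for the internal entries, and -0.48 and -0.31 with library size alone. With alpha satellite and ribosomal RNA taken out of the library total it was 0.06 for the LTRs and 0.24 for the internal entries. These sums were not tested.

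A ratio of 2 entries within a library needs no scaling factor. The summed internal counts per summed LTR count were 0.836, 0.770 and 0.704 for the naive and 0.554, 0.875 and 0.625 for the primed libraries. Primed library 2, with 175 internal and 200 LTR counts, was the highest of the 6, whereas the deeper primed libraries were the lowest. The internal share was thus not separated between the groups.

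For single entries, 11 log2 ratios were put to a two-sided exact permutation test over the 6 libraries, whose smallest possible p is 0.1, so that no ratio could pass 0.05. Of these, 5 reached 0.1 (Benjamini-Hochberg adjusted p = 0.22 each), which is reached whenever the groups do not overlap. How often ratios of other repeats to LTR12C separate was not computed. In TMM CPM, 36% of named repeats separated in the higher and 3.24% in the lower direction. LTR12 per LTR12C was 0.151, 0.162 and 0.178 in the naive and 0.112, 0.128 and 0.129 in the primed libraries. Every naive library was above every primed one, and the mean log2 ratio differed by 0.39. LTR12B per LTR12C was 0.0250, 0.0142 and 0.0282 in the naive and 0.0295, 0.0465 and 0.0334 in the primed libraries, with all naive libraries below. The mean log2 difference was -0.79, but -0.48 without naive library 2 and -0.54 without primed library 2. In primed library 2 both ratios rest on few counts, 11 of LTR12, 4 of LTR12B and 86 of LTR12C. These ratios separated the libraries in opposite directions, with no background of other ratios to set them against.

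The remaining ratios within the group overlapped between naive and primed libraries. HERV9NC-int per LTR12C was 1.0, 0.726 and 0.693 in the naive and 0.555, 0.802 and 0.591 in the primed libraries (mean log2 difference 0.31, exact permutation p = 0.3, n = 3 a group). The overlap came from primed library 2, with 69 and 86 counts, since the other 2 primed libraries lay below all naive ones. The difference was 0.47 without primed library 2, 0.15 without naive library 1 and 0.21 without primed library 1. LTR12E per LTR12C differed by -0.11 on the log2 scale (exact permutation p = 0.3) and LTR12D per LTR12C by 0.14 (exact permutation p = 0.2). HERV9-int, HERV9N-int and LTR12F gave differences of 0.04, 0.14 and 0.00099, with exact permutation p of 0.9, 0.7 and 1.

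LTR12C was lower relative to each of 3 chosen retroviral LTRs in all naive libraries. The 3 do not stand for retroviral LTRs in general, so these ratios describe the chosen pairs only. LTR5_Hs had the largest log2 change (1.59) of 246 entries outside the group with names starting with LTR, whose median was 0.32. LTR12C per LTR5_Hs, the youngest LTR of HERVK, was 0.818, 0.734 and 1.35 in the naive and 2.62, 1.72 and 2.71 in the primed libraries (mean log2 difference -1.30). LTR12C per LTR7, the LTR of HERVH, was 0.597, 0.515 and 0.712 in the naive and 0.918, 0.851 and 1.05 in the primed libraries (-0.64). LTR12C per LTR17, the LTR of the related HERV-W group, was 4.404, 4.299 and 4.237 in the naive and 6.036, 5.733 and 4.747 in the primed libraries (-0.33). Each of the 3 differences had the smallest exact permutation p of 0.1. In the same fit LTR5_Hs and LTR7 were called higher in naive libraries (log2 1.59 and 0.87, edgeR adjusted p = 0.00443 and 0.0156). LTR5_Hs kept its call with library size alone (log2 0.87, edgeR adjusted p = 0.00685) and LTR7 did not (0.17, 0.617).

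**Figure D3:**
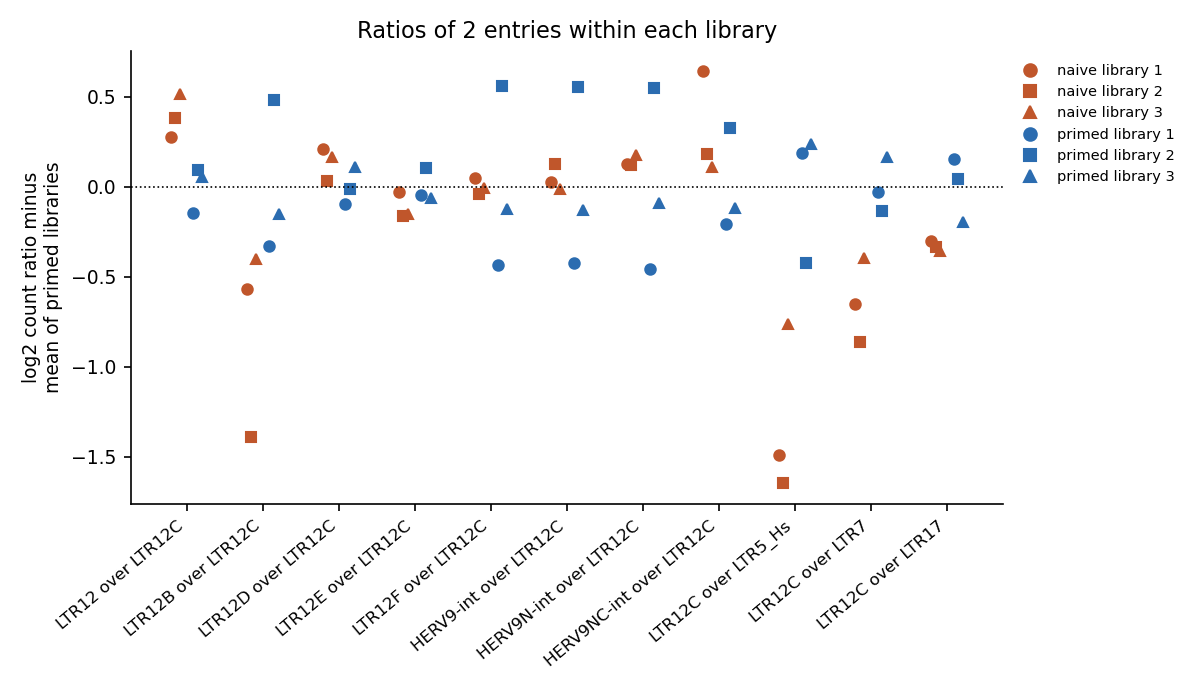
Log2 ratios of 2 entries within each library, shown relative to the mean of the 3 primed libraries, which is the dotted line at 0. Naive libraries (orange) lie all above the primed ones (blue) for LTR12 over LTR12C and all below for LTR12B over LTR12C and for LTR12C over LTR5_Hs, LTR7 and LTR17.

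The mean share of any 1 entry in the counts of the group differed by at most 3.48 percentage points between the states. LTR12C held 25.9% ± 1.29 of the counts of the 9 entries over the naive and 27.1% ± 3.72 over the primed libraries, HERV9-int 20.8% ± 1.54 and 21.2% ± 4.46, LTR12E 20.7% ± 0.249 and 23.3% ± 1.93, and HERV9NC-int 20.7% ± 3.21 and 17.3% ± 0.989 (SD, n = 3). The shares of LTR12C and HERV9-int overlapped between the groups, while those of LTR12E, HERV9NC-int, LTR12 and LTR12B did not. For LTR12E and HERV9NC-int the separation was within counting error. The LTR12E share in primed library 2 was 21.3% (95% Wilson interval 17.5% to 25.8%), next to 20.9% in naive library 3. The HERV9NC-int share there was 18.4% (14.8% to 22.6%), next to 18.6% in naive library 3. LTR12 held 4.25% ± 0.549 over the naive and 3.32% ± 0.361 over the primed libraries, and LTR12B 0.581% ± 0.193 and 0.966% ± 0.0909 (SD, n = 3). The nearest LTR12 shares, 3.68% in naive library 1 and 3.65% in primed library 3, also lay within each other's Wilson interval. All 9 entries together took 0.192% to 0.246% of a naive library and 0.256% to 0.318% of a primed library. Outside alpha satellite and ribosomal RNA they took 0.339%, 0.373% and 0.376% in the naive and 0.312%, 0.331% and 0.347% in the primed libraries, and the groups then overlapped.

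Over all 6 libraries the entries did not vary in step, which rested in part on primed library 2. In log2 TMM CPM, Pearson's r was 0.99 between LTR12C and LTR12E and 0.94 between LTR12C and LTR12D. It was 0.97 between HERV9-int and LTR12F and 0.98 between HERV9N-int and LTR12F, but 0.25 between LTR12C and HERV9-int. LTR12B was negatively correlated with each of the other 8. These values are descriptions over 6 points that share the library factors, and primed library 2 weighs heavily in them. Without it, r between LTR12C and HERV9-int was 0.70 and that between LTR12C and LTR12E was 0.95. Between HERV9-int and LTR12D it rose from 0.31 to 0.9, and between LTR12D and LTR12F from 0.36 to 0.96. Between HERV9NC-int and LTR12E it fell from 0.36 to -0.29. LTR12B stayed negatively correlated with each of the other 8.

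Of 1255 other named repeats tested, the 5 whose log2 CPM was most like that of LTR12C over the 6 libraries included Helitron1Nb_Mam (Pearson's r = 0.989), MER67A (0.988), LTR53-int (0.979) and MER31A (0.978). A further 1 of the 5 was a subunit entry of a FAM90A composite repeat (0.994). None of the 5 was called by edgeR. The 5 most like HERV9-int were L1PA4 (0.998), L1PA2 (0.989), MER72B (0.984), L1PA3 (0.980) and L1PA6 (0.978), 4 of them young L1 families, again with 0 called. An r above 0.9 was reached by 9.16% of the other named repeats with LTR12C and by 5.26% with HERV9-int, so such values were not rare in these libraries. Primed library 2, with 86 LTR12C and 98 HERV9-int counts, was among the 6, and likeness without it was not computed.

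HERV9 belongs with HERV-W, HERV30, HERV35, LTR19 and MER41 to one supergroup of class I retroviruses. Of 20 entries of these relatives, all tested, 3 were called higher in naive libraries, 0 lower and 17 missed the threshold. Their median log2 change was 0.25. The 3 were internal regions, out of 6 internal entries, and 0 of the 14 LTR entries of the relatives were called. HERV17-int, the internal region of HERV-W, averaged 378 ± 24.0 CPM over the naive and 236 ± 58.1 over the primed libraries (SD, n = 3; log2 0.64, edgeR adjusted p = 0.0307). MER41-int averaged 657 ± 132 and 422 ± 19.1 CPM (SD, n = 3; log2 0.64, edgeR adjusted p = 0.0266). The rare HERV30-int averaged 18.4 ± 3.39 and 8.29 ± 2.81 CPM (SD, n = 3; log2 1.38, edgeR adjusted p = 0.0177), with 2 counts in primed library 2. LTR17 (log2 0.45, edgeR adjusted p = 0.123) and MER41B (0.39, 0.0686) did not pass.

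In both HERV9 and its relatives, the called entries were internal regions. Over the other named repeats tested, 25.3% of 99 internal entries and 13% of 246 entries with names starting with LTR were called higher. For HERV9 it was 1 of 3 internal and 0 of 6 LTR entries. Internal entries such as LTR53-int and LTR19-int are in both of the larger sets, which also hold relatives. The 13% is therefore not a background of LTRs alone. Whether internal regions and LTRs of HERV9 differ in their change was not tested. The calls of HERV17-int, MER41-int and HERV30-int were each lost without primed library 1 (edgeR adjusted p = 0.208, 0.165 and 0.150), and those of HERV17-int and MER41-int also without naive library 2 (0.0671 and 0.0929). With library size alone 0 relatives were called higher.

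**Figure D4:**
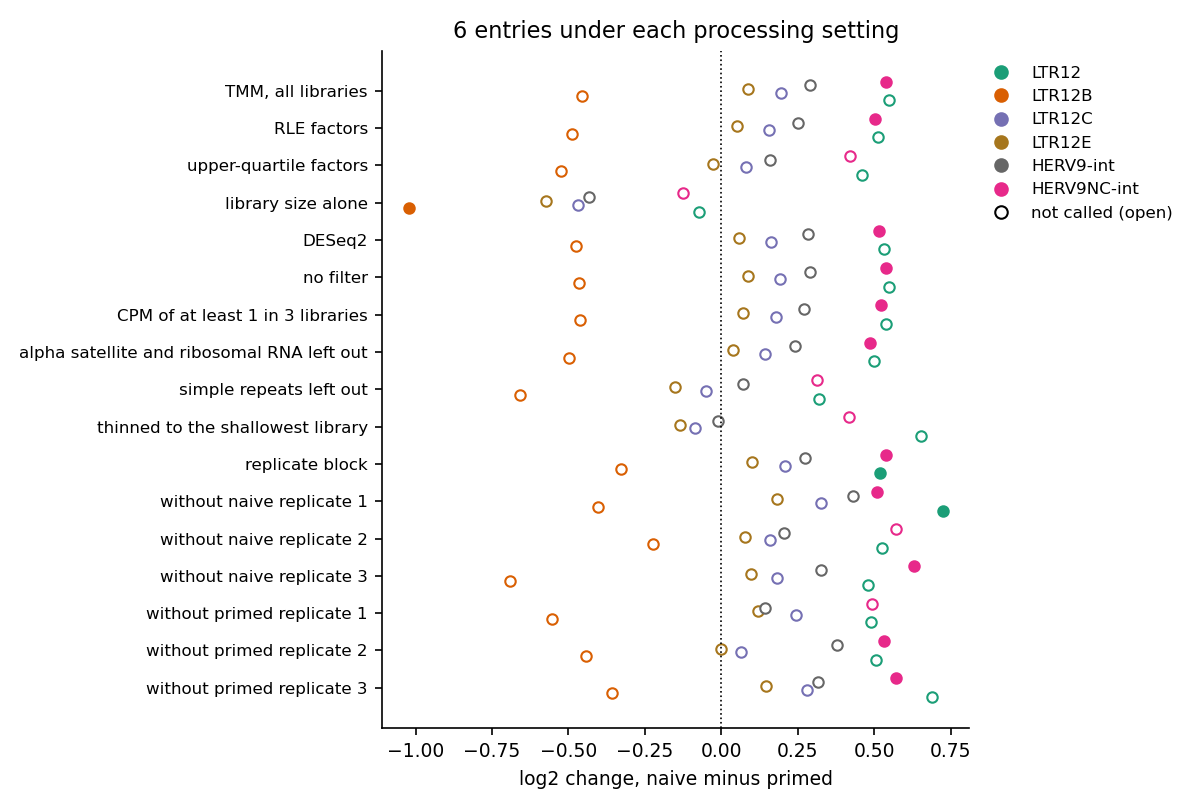
The log2 change (naive minus primed) of 6 entries under each processing setting, with filled circles where the adjusted p was under 0.05 and open circles where it was not. HERV9NC-int and LTR12 stay right of 0 except with library size alone, and LTR12B stays left of 0 wherever it was tested. LTR12C, LTR12E and HERV9-int change side under further settings.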

How the data were processed

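The values in the deposited table are raw whole-number counts for each repeat name. Per the submitters' processing notes, Trimmomatic 0.39, STAR 2.7.8a, featureCounts and Subread 2.14.2 were used. The genome build, repeat annotation, strand setting and treatment of multi-mapping reads are not named in the sources used here, and no consensus sequence of these repeats was used here. Columns were matched to samples by title, and groups taken from the treatment label.

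All entries were fitted together with edgeR 4.0.16 in R 4.3.3 (TMM, filterByExpr by group, quasi-likelihood F-test between naive and primed, Benjamini-Hochberg over 3219 entries tested, threshold 0.05). The standard error is the log2 change divided by the square root of F, and 95% intervals use the test's total degrees of freedom. CPM values use TMM-scaled library totals. Ratios had 0.5 counts added to each entry for the log2 value. Likeness used log2 CPM with a prior count of 2. Intervals of single counts or shares cover counting error only. Entries, lists and tests were chosen with earlier results of these data known. Named were all entries of the group, called relatives with LTR17 and MER41B, and the 5 repeats most like the most abundant LTR and internal entry. LTR12_v was added after its values were seen.

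Replicates of a group differed by more than sampling noise in every pair. On simulated counts for this comparison (3007 entries tested), 51.6% of 91 entries changed 2-fold and 98.8% of 81 changed 4-fold were called, and 2.31% of 130 calls were false. The simulation drew all 6 libraries from 1 pooled profile, without the shift of alpha satellite and ribosomal RNA between the groups. Its rates therefore do not cover errors that come from the scaling. Alternatives were RLE, upper-quartile and no factors, DESeq2 1.42.0, 2 other filters, leaving out simple repeats or alpha satellite and ribosomal RNA, thinning to the shallowest library, the replicate number as a block, and each library left out in turn. For ratios they were an added count of 2, the block and left-out libraries. Plots were made in Python 3.11.15 with matplotlib 3.10.9.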

Additional observations from a re-analysis of the deposited data

How the results depend on the processing

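The counts and signs rested on the scaling and on single libraries, and the depth of primed library 2 limits every entry. Among the 9 HERV9 and LTR12 entries, 0 were called higher with upper-quartile factors, library size alone, simple repeats left out, or all libraries thinned to the shallowest one, where only 5 of the 9 were tested. Leaving out each library gave 0 to 2 higher: 0 without naive library 2 or primed library 1, and 2 (HERV9NC-int and LTR12) without naive library 1. The count called lower was 1 with library size alone. The relatives called higher numbered 0 with library size alone or thinning, 1 without simple repeats, and 0 to 5 with a library left out, and 1 was lower with library size alone.

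Over all entries, 159 were higher and 250 lower. These became 104 higher with upper-quartile factors, 28 and 1043 with library size alone, 95 and 114 with DESeq2, 264 and 596 with no filter, 31 and 17 without simple repeats, and 2 and 0 with thinning. With a library left out they ranged from 8 to 238 higher and from 7 to 412 lower. The lowest counts came without primed library 1. Without naive library 2 they were 56 and 122. The cause was not tested.

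With library size alone the sign turned for HERV9-int (-0.43), HERV9N-int (-0.20), HERV9NC-int (-0.13), LTR12 (-0.0718), LTR12C (-0.47), LTR12D (-0.36), LTR12E (-0.57), LTR12F (-0.35), LTR12_v (-0.46), HERV17-int (-0.0109), LTR17 (-0.18), MER41-int (-0.0673) and MER41B (-0.28), and the summed LTRs and internal entries moved to -0.48 and -0.31. With a library left out these sums ranged from 0.06 to 0.30 and from 0.33 to 0.45. With simple repeats left out LTR12C (-0.0494), LTR12E (-0.15) and LTR12_v (-0.0663) turned, with thinning HERV9-int (-0.0103), LTR12C (-0.0863) and LTR12E (-0.14), and with upper-quartile factors LTR12E (-0.0263). LTR12E ranged from -0.0030 (without primed library 2) to 0.18 with a library left out. Among log2 ratios to LTR12C, the difference for HERV9-int turned without primed library 1 or 3 (range with a library left out -0.17 to 0.32), that for HERV9N-int without primed library 1 (-0.0867 to 0.41), and that for LTR12F with 2 added counts (-0.0499) or without naive library 1, primed library 1 or primed library 3 (-0.22 to 0.28).

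With the replicate number as a block, 2 of the 9 entries (HERV9NC-int, and LTR12 with edgeR adjusted p = 0.00853), 5 relatives and 264 of all entries were called higher. Same-numbered libraries had deviations correlated at 0.146, 0.0867 and 0.0659, not all above 0.1. Each library correlated best with its own number. Deviations from the group mean sum to 0 over the 3 libraries of a group, so these correlations are tied to each other. They do not show that libraries of equal number belong together, which the labels do not state either.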
